A study of Mus musculus with 20 samples.

Results

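Transcripts of 9 genes used as markers of neurons and their axons were followed in whole mouse limbs: Gap43, Dcx, Stmn2, Tubb3, Nefl, Nefm, Ina, Snap25 and Elavl4. The genes were chosen by name, as probe sets whose platform symbol was one of the 9, and the probe set with the highest mean stood for each gene. That choice was made with earlier results of these data known. They are 9 of the 19936 genes measured with a single symbol. All limbs came from 129Sv embryos at embryonic day 13.5. There were 5 limbs in each of 4 groups: Lmx1b -/- forelimbs, wild-type forelimbs, Lmx1b -/- hindlimbs and wild-type hindlimbs. Each Affymetrix whole-transcript array carried RNA of a single limb, and the series asks which limb genes depend on Lmx1b, the LIM-homeodomain factor of dorsal limb mesenchyme. The labels name no promoter or cell type for the loss of Lmx1b, so nothing in them limits it to the limb mesenchyme.

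The nerves of the limb are bundles of axons whose cell bodies lie outside it, in dorsal root ganglia, spinal cord and sympathetic ganglia. Motor and sensory axons enter the limb bud together, divide into dorsal and ventral branches, and are followed by Schwann cell precursors. Most of these 9 genes encode proteins that build the axon or its tip: Gap43 is a membrane phosphoprotein of growth cones, Dcx and Stmn2 act on microtubules, Tubb3 is the neuronal beta-tubulin, and Nefl, Nefm and Ina are neurofilament subunits. Snap25 belongs to the machinery that fuses vesicles with the membrane, and Elavl4 is a neuronal RNA-binding protein known to bind and stabilise Gap43 messenger RNA. In whole limbs, fewer cells of a type and less RNA per cell cannot be told apart.

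Dcx lies on the X chromosome, and RefSeq promoter windows were at hand for it and for Elavl4, Tubb3 and Ina, 4 of the 9 genes. The windows run from 250 bases before the annotated start to 50 after it. They were searched for TAATTA, the letters at the core of many LIM-homeodomain binding sites, which read the same on both strands. The Dcx window is shown because Dcx differed between genotypes, and an Elavl4 window because Elavl4 did not pass the test. The Elavl4 window shown is among those that hold TAATTA, and Tubb3 and Ina, which did not pass either, have none in theirs. The capitals mark TAATTA. Both are on the minus strand of GRCm38.p6, at chrX:143933170-143933469 for Dcx and chr4:110287478-110287777 for Elavl4.
Dcx: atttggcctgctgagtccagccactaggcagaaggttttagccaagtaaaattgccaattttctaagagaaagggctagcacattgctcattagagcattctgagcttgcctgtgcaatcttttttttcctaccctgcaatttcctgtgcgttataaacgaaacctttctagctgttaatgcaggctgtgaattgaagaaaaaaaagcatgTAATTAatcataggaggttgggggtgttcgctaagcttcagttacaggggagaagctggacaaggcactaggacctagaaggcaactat
Elavl4: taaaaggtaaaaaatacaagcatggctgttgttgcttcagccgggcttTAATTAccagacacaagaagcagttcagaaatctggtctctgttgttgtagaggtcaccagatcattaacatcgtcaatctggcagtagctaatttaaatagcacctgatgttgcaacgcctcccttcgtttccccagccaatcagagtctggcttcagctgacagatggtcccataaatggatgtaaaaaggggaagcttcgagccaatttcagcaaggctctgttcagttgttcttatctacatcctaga
TAATTA began 39 bases before the start in the Dcx window and 202 bases before it in the Elavl4 window. A further window of each gene overlaps the one shown and holds the same TAATTA. The Tubb3 window, the Ina window and the other 2 Elavl4 windows did not contain these letters. Of 32851 mouse promoter windows, 5.29% held TAATTA. A match is a description of the letters and not evidence of a site.

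Lmx1b itself, read by probe set 10481835, had log2 levels of 5.60 to 6.09 in the 10 Lmx1b -/- limbs and of 6.14 to 6.52 in the 10 wild-type limbs. Array medians lay between 4.84 and 4.99 on the log2 scale. The means of Gap43, Dcx and Stmn2 were 8.15, 6.26 and 5.93, whereas the other 6 genes averaged below 5, close to the middle of the array or under it. Snap25 at 3.95 and Elavl4 at 3.99 lay under the lower quartile of gene means, 4.09. Some markers of neuronal cell bodies were dim too, with Pou4f1 of sensory neurons at 3.85 and Mnx1 and Chat of motor neurons at 3.79 and 3.75. They were named because they were dim. Other genes used to mark these neurons were brighter, such as Runx1 for sensory neurons, with group means of 5.20 to 5.38, and Lhx4 for motor neurons, with 4.88 to 5.25. Array intensities have no true 0, and calls of detection were not used here, so whether such dim probe sets measured transcript at all is unknown. Y-linked transcripts and Xist split the arrays into 13 male and 7 female ones. Lmx1b -/- forelimbs held 2 males and 3 females against 5 males in wild-type forelimbs, and both hindlimb groups held 3 males and 2 females.

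Across both limb types, Gap43, Dcx and Snap25 were lower in Lmx1b -/- limbs than in wild-type limbs, and Stmn2 was higher. The other 5 genes did not pass the test. The lowered transcripts encode a membrane-bound growth-cone protein, a microtubule-binding protein of young neurons and a vesicle fusion protein, and the raised one a growth-cone protein that binds tubulin. In all, 4 of 9 genes passed limma's adjusted p of 0.05, where 2.04% of the 19936 genes did so, 1.57% lower and 0.466% higher. The 9 were chosen with earlier results of these data known, and they were not tested as a set. The median change of the 9 genes was -0.07 on the log2 scale, and 8 of the 9 changes were negative. The median over all genes was -0.00, with 51.1% of them negative.

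Gap43 encodes the growth-associated protein of extending axons, and it separated the genotypes on every array. Its log2 level was 7.86, 8.08, 8.0, 7.81 and 8.03 in Lmx1b -/- forelimbs and 8.21, 8.41, 8.35, 8.27 and 8.45 in wild-type forelimbs. In hindlimbs it was 7.97, 8.05, 8.01, 7.82 and 7.94 in Lmx1b -/- and 8.32, 8.49, 8.30, 8.32 and 8.41 in wild type. All 10 Lmx1b -/- arrays lay below all 10 wild-type arrays, a separation that 0.135% of genes had in this direction. Mean intensity was 249 ± 19.9 in Lmx1b -/- forelimbs, 324 ± 22.0 in wild-type forelimbs, 249 ± 15.1 in Lmx1b -/- hindlimbs and 331 ± 19.2 in wild-type hindlimbs (SD, n = 5 each). Gap43 fell by 0.40 on the log2 scale over both limb types (SE 0.0472; limma, adjusted p = 2.26e-05), a level 1.32-fold lower. The 4 group means therefore fell into a lower pair and a higher pair, and within each pair forelimbs and hindlimbs did not differ beyond their spread. Among male arrays alone, Gap43 ran from 7.86 to 8.03 in Lmx1b -/- forelimbs and from 8.21 to 8.45 in wild-type forelimbs, and from 7.82 to 8.05 in Lmx1b -/- hindlimbs and from 8.32 to 8.41 in wild-type hindlimbs. The fitted change in males was -0.40 (SE 0.0662; limma, adjusted p = 0.013).

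Dcx encodes doublecortin, which stabilises microtubules in young, migrating neurons and their growing processes. Its log2 level was 6.25, 6.15, 6.0, 6.24 and 6.23 in Lmx1b -/- forelimbs and 6.59, 6.71, 6.70, 6.72 and 6.63 in wild-type forelimbs. Hindlimbs had 5.66, 6.11, 5.94, 6.08 and 5.95 in Lmx1b -/- and 6.29, 6.28, 6.32, 6.12 and 6.28 in wild type. The genotypes did not overlap in either limb type, as was so for 0.271% of genes in this direction, and Lmx1b -/- hindlimb 6 was the lowest array of all. Over both limb types Dcx fell by 0.40 (SE 0.0525; limma, adjusted p = 6.51e-05). Wild-type forelimbs were highest, Lmx1b -/- forelimbs and wild-type hindlimbs overlapped in the middle, and Lmx1b -/- hindlimbs were lowest. Because Dcx is X-linked and the sexes were unevenly spread, the male arrays were also read alone. Their Dcx levels were 6.23 to 6.25 in Lmx1b -/- forelimbs against 6.59 to 6.72 in wild-type forelimbs, and 5.66 to 6.11 in Lmx1b -/- hindlimbs against 6.12 to 6.29 in wild-type hindlimbs. These ranges did not overlap either, but with 13 arrays the change of -0.36 did not pass the test (SE 0.0772; limma, adjusted p = 0.0747).

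Stmn2, whose product stathmin-2 binds tubulin in growth cones and acts on microtubule assembly, went in the other direction. Its log2 level was 6.58, 6.47, 6.26, 6.73 and 6.31 in Lmx1b -/- forelimbs and 6.34, 6.24, 6.29, 5.93 and 5.89 in wild-type forelimbs. Hindlimbs had 5.77, 5.90, 5.60, 5.74 and 5.48 in Lmx1b -/- and 5.52, 5.19, 5.54, 5.38 and 5.53 in wild type. The genotypes overlapped in both limb types, with 7 of the 10 Lmx1b -/- arrays above the wild-type range of their limb type. Stmn2 rose by 0.30 over both limb types (SE 0.0751; limma, adjusted p = 0.0413), close to the threshold. The call was lost in 11 of the 20 fits that left out an array, where adjusted p ran from 0.0224 to 0.0891. The libraries whose removal lost it were wild-type forelimbs 4 and 5, wild-type hindlimbs 7, 9 and 10, Lmx1b -/- forelimbs 1, 2 and 4, and Lmx1b -/- hindlimbs 6, 7 and 9. In male arrays the change was 0.32 with an adjusted p of 0.258 (limma).

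Snap25, a component of the SNARE complex of vesicle release, was lower by a smaller amount and was read by a dim probe set. Its log2 level was 3.71, 3.90, 3.69, 3.87 and 3.92 in Lmx1b -/- forelimbs and 4.02, 4.10, 4.20, 3.99 and 4.32 in wild-type forelimbs. Hindlimbs had 3.94, 3.74, 3.75, 3.84 and 3.84 in Lmx1b -/- and 3.99, 4.02, 3.88, 4.01 and 4.17 in wild type. Of the 10 Lmx1b -/- arrays, 9 lay below the wild-type range of their limb type. Snap25 fell by 0.25 (SE 0.0511; limma, adjusted p = 0.00958), which on the linear scale was a mean intensity of 14.1 ± 1.06 in Lmx1b -/- forelimbs against 17.5 ± 1.69 in wild-type forelimbs (SD, n = 5 each). In male arrays the change was -0.26 with an adjusted p of 0.258 (limma).

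**Figure D1:**
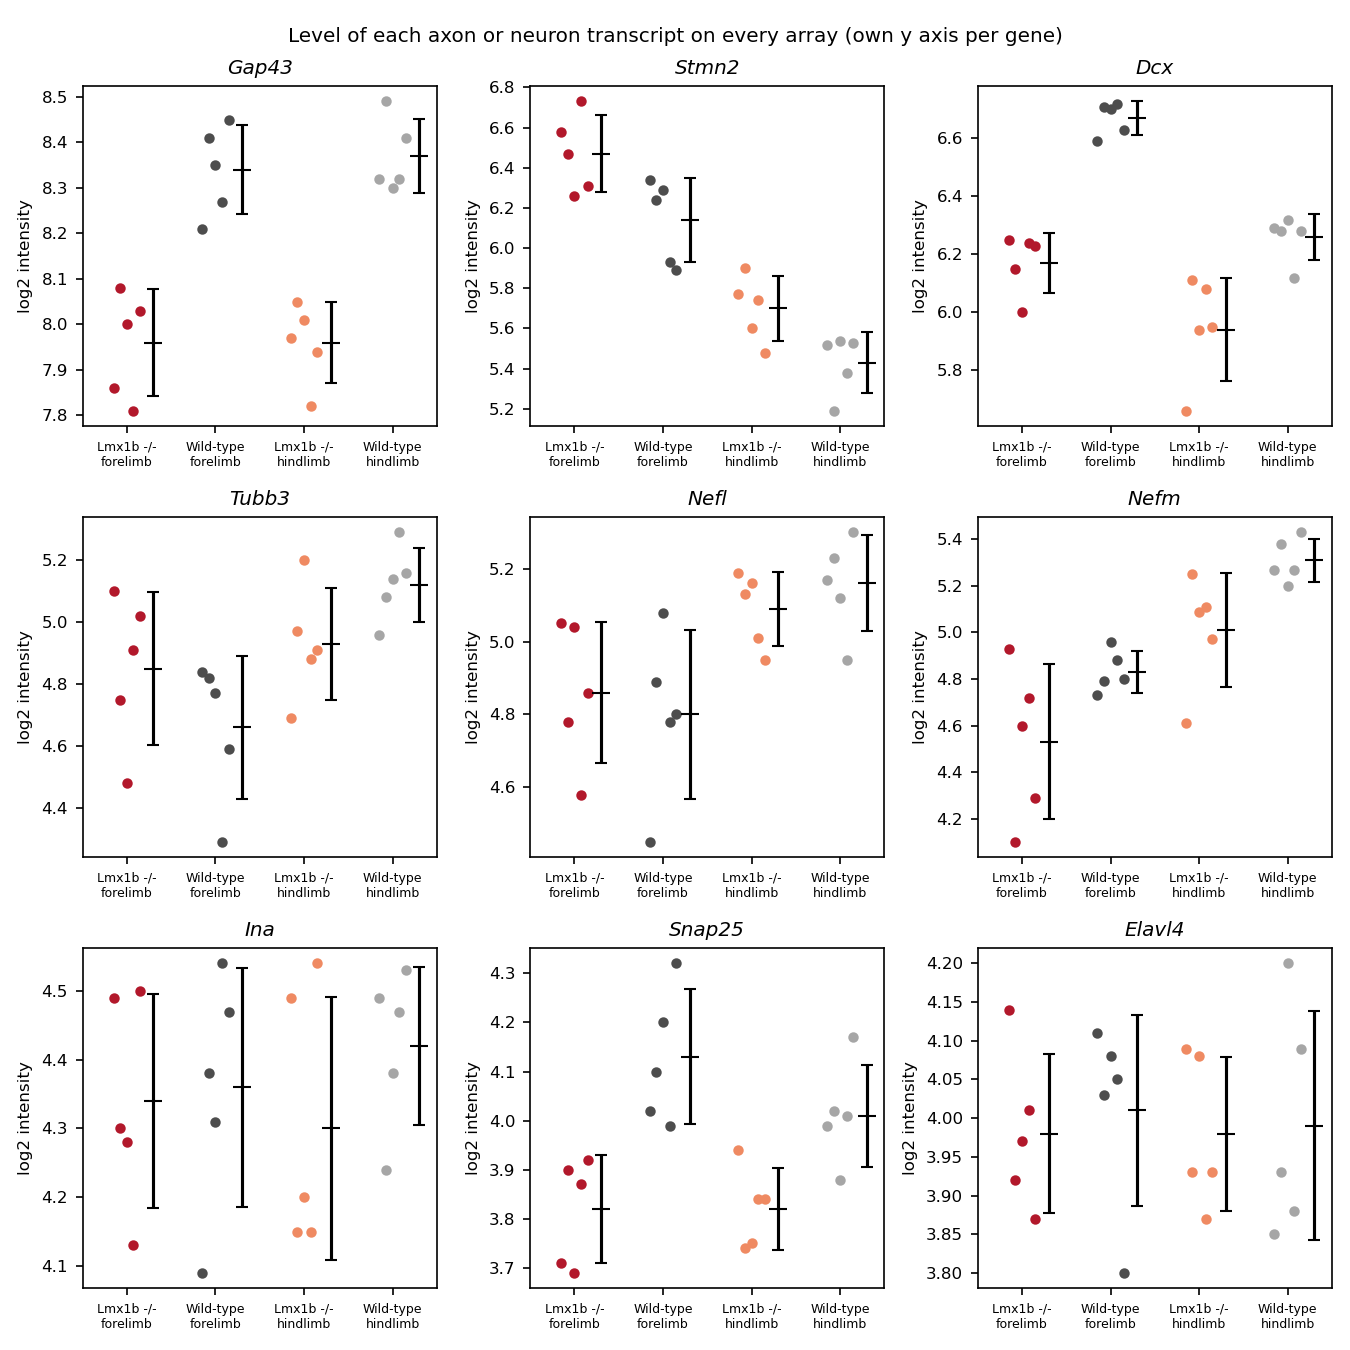
Log2 intensity of each of the 9 genes on every array, by group, with Lmx1b -/- to the left of wild type in forelimbs and then in hindlimbs. Each point is 1 limb, the bar beside it is the mean with its SD (n = 5), and each panel has its own vertical axis. Gap43 separates all Lmx1b -/- from all wild-type arrays, Dcx separates them within each limb type, and for Elavl4 and Ina the ranges of the genotypes overlap in both limb types.

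The neurofilament genes did not move as a group. Nefm, the medium subunit, was 4.93, 4.10, 4.60, 4.72 and 4.29 in Lmx1b -/- forelimbs and 4.73, 4.79, 4.96, 4.88 and 4.80 in wild-type forelimbs. In hindlimbs it was 4.61, 5.25, 5.09, 5.11 and 4.97 in Lmx1b -/- and 5.27, 5.38, 5.20, 5.27 and 5.43 in wild type. Thus 8 of 10 Lmx1b -/- arrays were below the wild-type range of their limb type, and Lmx1b -/- forelimb 1 and hindlimb 7 were the exceptions. Its change of -0.30 missed the threshold (SE 0.0883; limma, adjusted p = 0.0863), and passed it when Lmx1b -/- forelimb 1 was left out (adjusted p = 0.0269). It also passed when limbs of a genotype that share a number in the descriptions were treated as a random block (-0.30, SE 0.0812; limma, adjusted p = 0.0426), which made the count 5 of 9. The estimated correlation within those blocks was -0.065, and 651 of all genes passed in that fit against 406 without the block. What that number marks is not given in the labels. Nefl, the light subunit, had a change of -0.00 with a 95% confidence interval of -0.15 to 0.15, and no Lmx1b -/- array fell outside the wild-type range of its limb type. That interval does not reach the estimates for Gap43 and Dcx. Ina, the internexin subunit, had a change of -0.07 with an interval of -0.21 to 0.07. Its group means lay between 4.30 and 4.42.

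Tubb3, the beta-tubulin taken as a general label of neurons and their axons, showed no net difference, with -0.00 over both limb types and an interval of -0.17 to 0.17. Its log2 level averaged 4.85 ± 0.246 in Lmx1b -/- forelimbs and 4.66 ± 0.231 in wild-type forelimbs, and 4.93 ± 0.182 in Lmx1b -/- hindlimbs and 5.12 ± 0.121 in wild-type hindlimbs (SD, n = 5 each). In forelimbs 3 Lmx1b -/- arrays were above the wild-type range, and in hindlimbs 3 were below it. Elavl4 had a change of -0.02 with an interval of -0.13 to 0.09, and its group means lay between 3.98 and 4.01. Nefl, Ina, Tubb3 and Elavl4 all averaged below 5 on the log2 scale.

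Taken by limb type, the genotype difference held 3 of the 9 genes in forelimbs and 1 in hindlimbs. In forelimbs, where 1.27% of all genes passed, 1.03% lower and 0.241% higher, Dcx fell by 0.50 (SE 0.0743; limma, adjusted p = 0.000593), Gap43 by 0.38 (SE 0.0667, adjusted p = 0.00311) and Snap25 by 0.31 (SE 0.0723, adjusted p = 0.0347). The Snap25 call in forelimbs was lost in 6 of 20 fits without an array, namely wild-type forelimbs 2, 3 and 5 and Lmx1b -/- forelimbs 1, 3 and 4. In hindlimbs, where 0.231% of genes passed, 0.226% lower and 0.00502% higher, Gap43 fell by 0.41 (SE 0.0667, adjusted p = 0.00299). Dcx changed by -0.31 there and missed the threshold (SE 0.0743; limma, adjusted p = 0.115). In male arrays, with 2 Lmx1b -/- forelimbs left, none of these 4 calls passed, at changes of -0.43 for Dcx, -0.39 for Gap43 and -0.31 for Snap25 in forelimbs and -0.40 for Gap43 in hindlimbs (limma, adjusted p = 0.23, 0.189, 0.428 and 0.317). Stmn2 had changes of 0.33 in forelimbs and 0.27 in hindlimbs, neither of which passed (limma, adjusted p = 0.154 and 0.749).

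The forelimb and hindlimb effects were also set against each other. None of the 9 genes passed that test (limma, adjusted p = 1 for each), which 0.0201% of all genes did, and 723 of the 19936 genes had an unadjusted p under 0.05. Among the 9, Tubb3 was the only one with an unadjusted p under 0.05, at 0.0292, with a difference of -0.39 (SE 0.165) between the hindlimb and the forelimb effect. For Dcx the difference was 0.18 with a 95% confidence interval of -0.03 to 0.40. For Gap43 it was -0.02 with an interval of -0.22 to 0.17. That Dcx and Snap25 passed in forelimbs and missed in hindlimbs was thus not shown to be a difference between limb types.

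**Figure D2:**
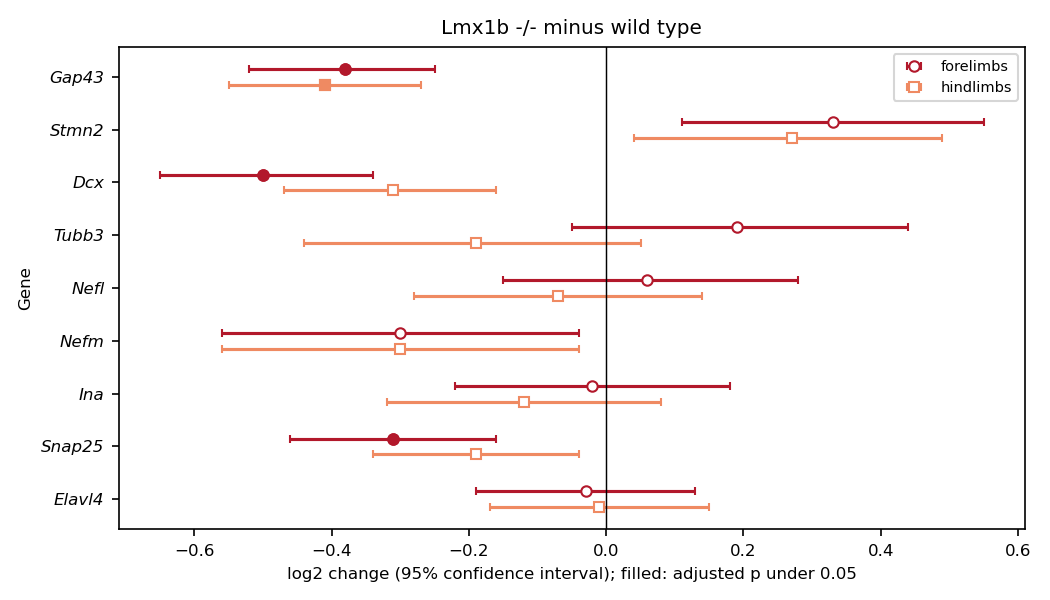
Log2 change, Lmx1b -/- minus wild type, of each gene in forelimbs (circles) and hindlimbs (squares), with 95% confidence intervals. Filled symbols passed limma's adjusted p of 0.05. Gap43 lies near -0.4 in both limb types, Stmn2 lies right of 0 in both, and Tubb3 lies on opposite sides of 0 with intervals that include it.

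Limb type itself went with the levels of these genes, in different directions. In wild-type limbs, 4 of the 9 passed for hindlimb against forelimb, 2 lower and 2 higher, where 3.26% of all genes did so, 2.49% lower and 0.772% higher. Stmn2 fell by 0.70 (SE 0.106; limma, adjusted p = 0.000539) and Dcx by 0.41 (SE 0.0743, adjusted p = 0.00283). Nefm rose by 0.48 (SE 0.125, adjusted p = 0.0364) and Tubb3 by 0.46 (SE 0.117, adjusted p = 0.0303). For Stmn2 and Dcx all 5 wild-type hindlimbs were below all 5 wild-type forelimbs, and for Nefm and Tubb3 all 5 were above them, as was so for 3.20% of genes in the first direction and 1.78% in the second. Nefl had a change of 0.36 that missed the threshold (SE 0.102; limma, adjusted p = 0.0579), with 4 of 5 hindlimbs above the forelimb range. It passed in 5 of 11 alternative settings, with adjusted p down to 0.0263 in limma with array weights, and without wild-type forelimb 3 or Lmx1b -/- forelimb 4. Gap43 differed little, at 0.03 with an interval of -0.11 to 0.17.

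Single arrays mattered for the smaller of these calls. In wild type the Nefm call was lost in 9 of the 20 fits that left out an array, those without any 1 of the 5 forelimbs and those without hindlimb 6, 7, 9 or 10 (adjusted p up to 0.0876). The Tubb3 call was lost in 5, those without forelimb 4 or 5 or hindlimb 7, 9 or 10 (adjusted p up to 0.103). The count of genes that passed was 2 in each of those 5 fits. The Stmn2 and Dcx calls held in all 20.

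In Lmx1b -/- limbs, 1 of the 9 passed for hindlimb against forelimb, where 0.617% of all genes did. Stmn2 fell by 0.77 (SE 0.106; limma, adjusted p = 0.000404), with all 5 hindlimbs below all 5 forelimbs, as for 0.943% of genes. Nefm changed by 0.48, the size seen in wild type, and missed the threshold (SE 0.125; limma, adjusted p = 0.102), and it passed without Lmx1b -/- forelimb 1 or without Lmx1b -/- hindlimb 6, which made the count 2. Dcx changed by -0.23 (adjusted p = 0.228, limma) and Tubb3 by 0.08 (adjusted p = 0.893, limma). The comparisons in the 2 genotypes share no arrays, and their difference is the same contrast as the one between the 2 genotype effects, which no gene of the 9 passed.

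**Figure D3:**
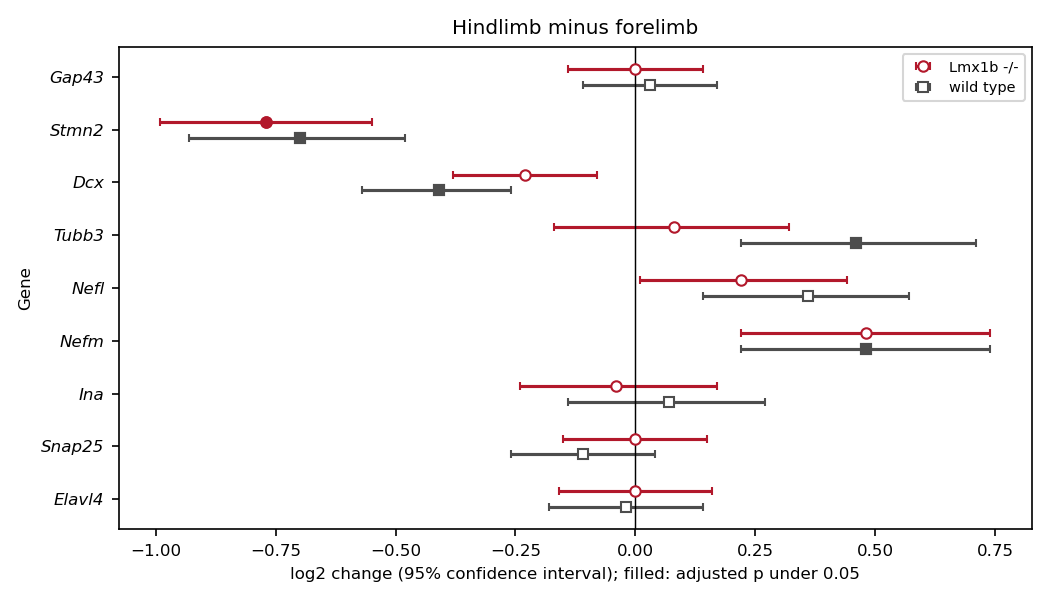
Log2 change, hindlimb minus forelimb, of each gene in Lmx1b -/- limbs (circles) and in wild-type limbs (squares), with 95% confidence intervals. Filled symbols passed limma's adjusted p of 0.05. Stmn2 lies near -0.7 in both genotypes, Nefm near 0.5 in both, and the 2 Tubb3 points are at 0.08 in Lmx1b -/- and 0.46 in wild type.

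Left and right limbs were compared as a contrast in which neither genotype nor limb type differs. None of the 9 genes passed in limma, 0 of all genes passed (0%), and 1889 genes had an unadjusted p under 0.05, 0 of the 9 among them. The largest change among the 9 was that of Nefl, -0.12 (SE 0.0707) for left minus right.

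Skeletal muscle transcripts differed between genotypes over both limb types and between wild-type limb types. Of 24 skeletal muscle genes, 23 had negative changes in Lmx1b -/- limbs over both limb types, and 15 had an unadjusted p under 0.05. The median was -0.27 against -0.00 for all genes. Of the 24, 6 passed as lower, where 1.57% of all genes did, and none as higher. Examples were Myf6, a myogenic regulator, at -0.41 (SE 0.0619; limma, adjusted p = 0.000519), and Tnnt2, a troponin subunit, at -0.41 (SE 0.0758, adjusted p = 0.0044). In forelimbs 6 of 24 passed as lower, where 1.03% of all genes did. All 24 forelimb changes were negative, 18 had an unadjusted p under 0.05, and the median was -0.43. The summed intensity was 6791 to 8576 in Lmx1b -/- forelimbs and 7910 to 10969 in wild-type forelimbs. In hindlimbs none of 24 passed in limma, where 0.231% of all genes did, and 2 had an unadjusted p under 0.05. Of those 24 changes 17 were negative, with a median of -0.06. The sums were 4998 to 6877 in Lmx1b -/- and 5475 to 6718 in wild type. Gap43 fell by 0.41 in those hindlimbs, and that call stayed with the mean of the muscle list as a covariate (limma). The part of muscle in that change was not tested beyond that fit. Between wild-type hindlimbs and forelimbs, 23 of 24 muscle genes passed as lower, where 2.49% of all genes did, with a median of -0.61. For the difference between the hindlimb and the forelimb genotype effect none of 24 passed, where 0.0201% of all genes did. Of those 24 differences 9 had an unadjusted p under 0.05, and the median was 0.25.

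With the mean of the muscle list as a covariate, the Gap43 and Dcx calls over both limb types stayed, at -0.36 each (limma, adjusted p = 0.00201 for Gap43 and 0.0066 for Dcx). The changes of Snap25, -0.27, and Stmn2, 0.22, no longer passed (adjusted p = 0.0718 for Snap25 and 0.51 for Stmn2, limma). In forelimbs Dcx was at -0.42, Gap43 at -0.32 and Snap25 at -0.34 in that fit, with wider errors (SE 0.0983, 0.089 and 0.0984), and none passed. None of the 4 limb-type calls in wild type passed either. Nefm changed by 0.75 and Stmn2 by -0.92 between wild-type limb types in that fit, both farther from 0 than without the covariate, and Tubb3 by 0.15. The mean log2 level of the muscle list was 6.64 to 7.08 in wild-type hindlimbs and 7.37 to 7.82 in wild-type forelimbs, without overlap, so limb type and muscle level cannot be told apart between these groups. It was 6.98 to 7.36 in Lmx1b -/- forelimbs, also without overlap with wild-type forelimbs. Genotype and muscle level therefore cannot be told apart in forelimbs either. In Lmx1b -/- hindlimbs it was 6.72 to 7.08.

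Other genes of axons, neurons and nerve cell types were read against all genes over both limb types, of which 2.04% passed, 1.57% lower and 0.466% higher, and 2928 of 19936 had an unadjusted p under 0.05. In lists this short a single call says nothing about the list as a whole. Of 24 further genes of the axonal cytoskeleton and growth cone, 1 fell in Lmx1b -/- limbs and none rose. Of the 24 changes 17 were negative, 7 had an unadjusted p under 0.05, and the median was -0.05. That gene was Dpysl3, a collapsin response mediator protein, at -0.32 (SE 0.0814; limma, adjusted p = 0.0459). Kif1a, a motor of axonal vesicle transport, had -0.23 and missed the threshold (SE 0.0609; limma, adjusted p = 0.0579). Map1b, a microtubule-associated protein of growing axons, had -0.33 and missed it as well (SE 0.116; limma, adjusted p = 0.161). Prph, the intermediate filament of peripheral neurons, had 0.05 (SE 0.0655). Between wild-type hindlimbs and forelimbs Map1b was lower by 0.78 and Crmp1 was higher by 0.45, so this list too held genes that moved in opposite directions.

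Of 10 axon adhesion genes 1 fell, Cntn1, which encodes contactin on the axon surface. Cntn1 changed by -0.90 in forelimbs (SE 0.1; limma, adjusted p = 1.56e-05) and by -0.07 in hindlimbs, and the difference of 0.82 between these effects passed (SE 0.142, adjusted p = 0.0435). Its probe set was dim, at 3.86 ± 0.181 in Lmx1b -/- forelimbs and 4.76 ± 0.166 in wild-type forelimbs (SD, n = 5 each), and in male arrays or with the muscle list as covariate no gene passed for that difference. Of 15 neuronal RNA-binding and nuclear genes 1 fell, the splicing factor gene Nova1, at -0.61 over both limb types (SE 0.0805; limma, adjusted p = 8.21e-05). Elavl3, a close relative of Elavl4, had 0.02, and the median of that list was 0.02. Of 24 genes of vesicle release 1 fell, the endocytosis gene Amph, at -0.33 (SE 0.0565; limma, adjusted p = 0.00242), with a median of -0.03. The other 23 of those vesicle genes did not pass.

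Genes that mark kinds of neurons gave 1 lower and none higher of 14 for sensory neurons, 1 lower of 8 for motor neurons, and 1 lower and 1 higher of 7 for sympathetic cells, beside 2.04% of all genes. Unadjusted p was under 0.05 for 3, 3 and 2 of them. The sensory one was Ntrk3, the neurotrophin-3 receptor, at -0.36 (SE 0.0556; limma, adjusted p = 0.000673), with -0.62 in forelimbs and -0.09 in hindlimbs, a difference that did not pass (0.52, SE 0.111; limma, adjusted p = 0.255). The motor one was Lhx4, at -0.24 (SE 0.0591, adjusted p = 0.0373). Th, which makes the precursor of catecholamines, rose by 0.29 (SE 0.0692, adjusted p = 0.0308), and Ddc, the next enzyme of that path, fell by 0.24 (SE 0.052, adjusted p = 0.0148). Pou4f1, Mnx1 and Chat had changes of -0.06, -0.03 and -0.13, none of which passed.

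Schwann cell precursors ensheath limb axons, and Gap43 is known to be made by them as well as by neurons. Of 15 Schwann cell and nerve sheath genes, 2 fell in Lmx1b -/- limbs and none rose. Of the 15 changes 13 were negative, 4 had an unadjusted p under 0.05, and the median was -0.07. Ednrb fell by 0.40 (SE 0.088; limma, adjusted p = 0.0174) and S100b by 0.28 (SE 0.0645, adjusted p = 0.0256), whereas Sox10, the defining transcription factor of the lineage, had -0.07 (SE 0.0452, adjusted p = 0.477). The summed intensity of the list was 1296 to 1633 in Lmx1b -/- forelimbs against 1556 to 1681 in wild-type forelimbs, and 1258 to 1481 in Lmx1b -/- hindlimbs against 1256 to 1541 in wild-type hindlimbs. Of 11 endothelial genes 10 had negative changes, 5 an unadjusted p under 0.05, and 2 fell, Tek by 0.44 and Emcn by 0.29 (limma, adjusted p = 0.000642 for Tek and 0.0136 for Emcn). None of 10 genes of central glia and neural progenitors and none of 7 epidermal genes passed in limma, and 0 of either list had an unadjusted p under 0.05. Of 4 Merkel cell genes Piezo2 fell by 0.35, and of 6 melanoblast genes Dct fell by 0.59 (adjusted p = 0.0265 for Piezo2 and 0.0171 for Dct, limma). All 6 melanoblast changes were negative, 4 had an unadjusted p under 0.05, and the median was -0.18. Dct changed by -0.96 in hindlimbs, which passed, and by -0.22 in forelimbs, which did not, and the difference between these effects did not pass. The part of these cell types in the changes of Gap43, Dcx, Snap25 and Stmn2 was not tested.

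**Figure D4:**
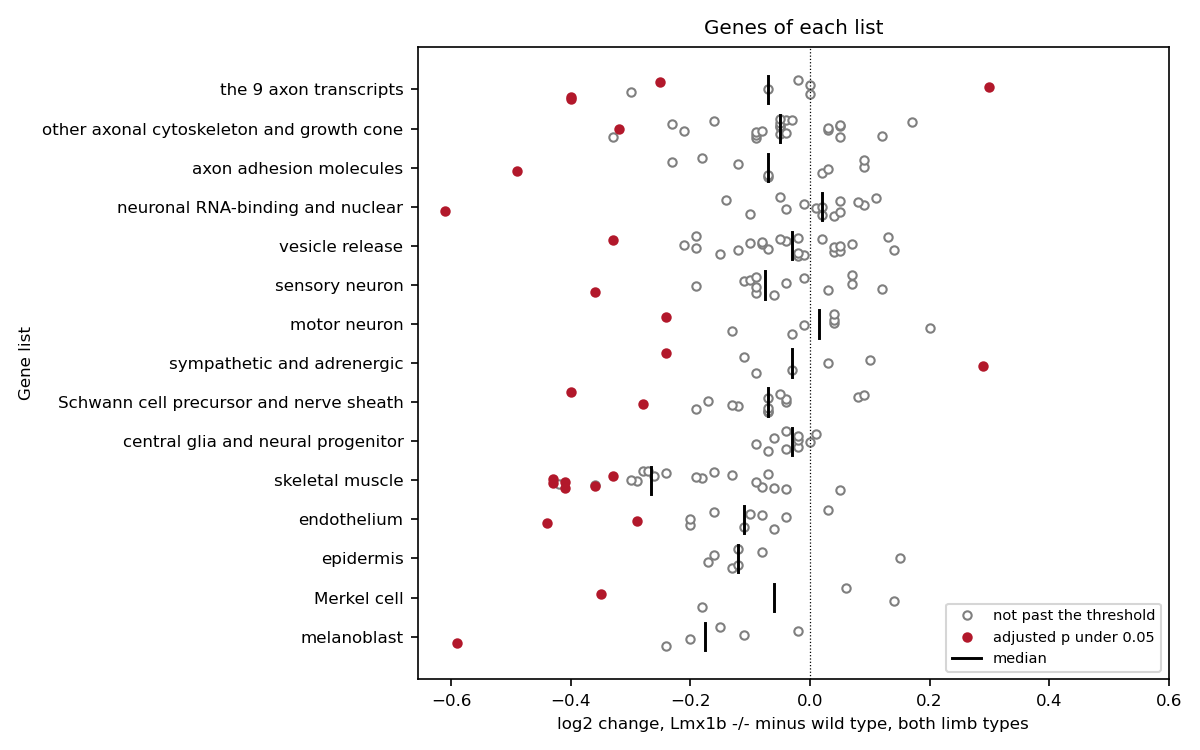
Log2 change, Lmx1b -/- minus wild type over both limb types, of every measured gene in each list. Red points passed limma's adjusted p of 0.05, open points did not, and the vertical bar is the list's median. The skeletal muscle list is shifted to the left as a whole, at a median of -0.27, while the other lists of axons and neurons are centred near 0 with single genes far to the left. The melanoblast, epidermis and endothelium medians also lie left of 0, at -0.18, -0.12 and -0.11.

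Within groups, the 9 genes did not vary together from limb to limb. After each group's mean was taken from its arrays, the 36 pairs of genes had Pearson's r between -0.44 and 0.55 over the 20 arrays, with a median of 0.02, and 19 of the 36 were positive. For r no pair had a permutation p under 0.05, and for Spearman's rho 1 pair did, Stmn2 with Elavl4 (rho 0.48, permutation p = 0.0415; r 0.45). After adjustment none passed, and the smallest adjusted p over the 36 pairs was 0.607 for r and 0.573 for Spearman's rho. The highest was that of Dcx with Nefm (r 0.55, permutation p = 0.0538; rho 0.50), and r was 0.47 without the 2 arrays farthest from the median of Dcx. The lowest was that of Gap43 with Stmn2, at -0.44. Nefl and Nefm, whose products assemble into the same filament, had r of 0.24. A shared variation of the 9 transcripts was thus not detectable with 20 arrays at these levels, and the name axon transcripts rests on the known roles of the genes.

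**Figure D5:**
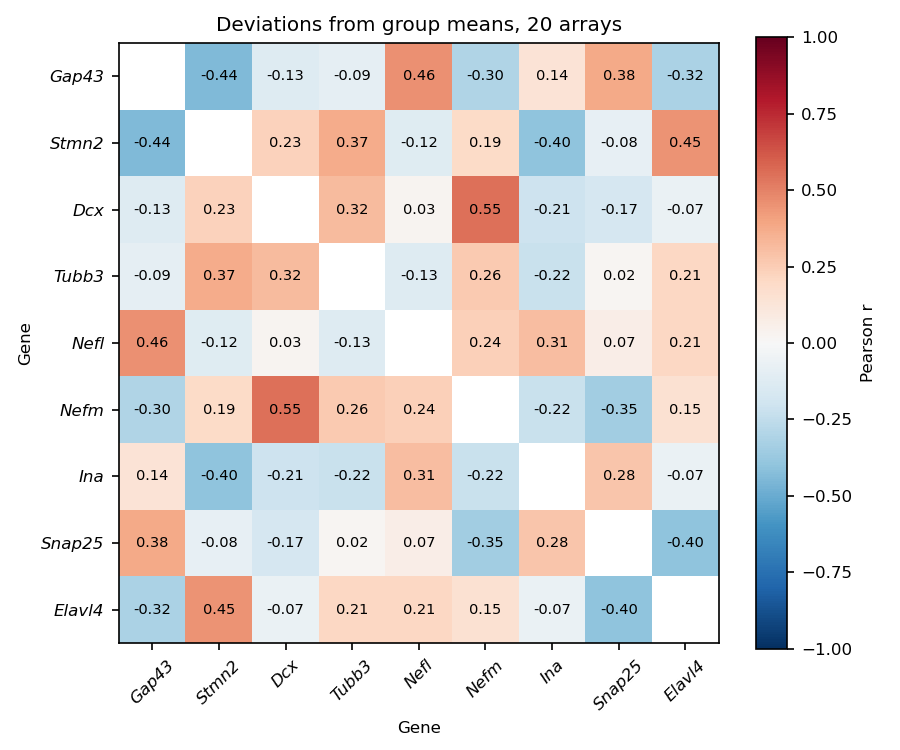
Pearson's r between each pair of the 9 genes over the deviations of the 20 arrays from their group means. Red is positive and blue negative. Values run from -0.44 (Gap43 with Stmn2) to 0.55 (Dcx with Nefm), with a median of 0.02.

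Other genes were ranked by their likeness to these in the same deviations. Of 10973 genes with a mean log2 level of at least 5, those with the highest r with Gap43 over 20 arrays were Alpl (0.84), Snx4 (0.79), C1qtnf3 (0.76) and Steap4 (0.73). Alpl encodes the alkaline phosphatase of mineralising tissue, and it was itself lower in Lmx1b -/- limbs, at -0.33 (SE 0.0676; limma, adjusted p = 0.00935). Steap4 was lower as well, at -0.83 (SE 0.108, adjusted p = 6.48e-05). With the mean of the 9 standardised genes, the highest were Btd (0.82), Negr1 (0.73), Hdac11 (0.73) and Tmem68 (0.72). Negr1, a neuronal growth regulator of the immunoglobulin superfamily, fell by 0.54 (SE 0.0595; limma, adjusted p = 8.28e-06). Each is the top of a search over 10973 genes on 20 arrays, and the arrays share their normalisation.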

How the data were processed

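The authors deposited linear intensities, a value for each probe set and array. RMA is the tool named, per the submitters' processing notes; its version and the genome build were not given in the sources used here. The log2 was taken with no pseudocount. Of 35512 probe sets, 21789 carried 1 gene symbol, giving 19936 genes, each read by its brightest probe set. Ina had 2 probe sets and the other 8 genes had 1. RefSeq names came from GRCm38.p6.

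All comparisons came from 1 limma 3.58.1 fit (R 4.3.3; lmFit, contrasts.fit, eBayes) with 4 group means, Benjamini-Hochberg adjustment over all genes and a threshold of 0.05; side was added for left against right. Correlations used 100000 permutations within groups. The fit was tested on simulated data. Tables were made in Python 3.11.15. No value column was left unused. The number of arrays limits the precision. Nothing in the labels ties limbs to embryos, and p-values cover only the spread between limbs, which may in part share an embryo.

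The 9 genes and 16 lists (204 entries, 12 without a probe set) were chosen with earlier results of these data known. The text names the 9 genes, Lmx1b, up to 4 genes a list by smallest genotype p, defining markers that were dim, and genes most alike by r. Map1b and Crmp1, Elavl3 and Prph were added after their values were seen. Same-numbered limbs of the 2 genotypes had correlated deviations in 4 of 10 pairs (r over 0.1; range -0.31 to 0.26), so numbers were not taken as pairs.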

Additional observations from a re-analysis of the deposited data

Results flagged for a closer look

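Among 40 groups of 5 arrays tested for a single array far from the others (9 genes and Lmx1b in 4 groups), 2 had one by Dixon's test, about what chance gives at 1 in 20. Dcx in wild-type hindlimb 9 was the lowest of its group at 6.12, against 6.28 to 6.32 in the other 4. This array came closest to the Lmx1b -/- hindlimbs, the highest of which was at 6.11. Elavl4 in wild-type forelimb 5 was the lowest of its group at 3.80, against 4.03 to 4.11 in the other 4.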

How the results depend on the processing

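Counts of the 9 genes past the threshold were recomputed under up to 13 alternative settings and in 20 fits that left out an array, and no called change reversed. Over both limb types the count of 4 became 1 in male arrays (Gap43) and 2 with the muscle list as covariate (Gap43 and Dcx), and 3 to 4 without single arrays. With the description number as random block it was 5 (Nefm gained), and 651 of all genes passed against 406 without the block. In forelimbs the count of 3 became 0 in male arrays and 0 with the muscle list, though the 3 changes there were -0.42 for Dcx, -0.32 for Gap43 and -0.34 for Snap25. It became 2, without Snap25, with median centring, a pseudocount of 16, the Y-linked covariate, the trended prior, only the groups compared and a mean log2 level of at least 5 (Snap25 not tested), and 2 to 3 without single arrays. In hindlimbs the count of 1 became 0 in male arrays and 2 with array weights (Gap43 and Dcx), and was 1 without any single array. For limb type in wild type the count of 4 became 2 with a mean log2 level of at least 5 (3 genes tested), 2 in male arrays and 0 with the muscle list, 3 with the Y-linked covariate (Nefm lost, adjusted p = 0.0539), 5 in 5 settings (Nefl gained: median centring, a pseudocount of 16, the side covariate, array weights and the trended prior), and 2 to 5 without single arrays. In Lmx1b -/- limbs the count of 1 became 0 in male arrays and 1 to 2 without single arrays. Male arrays number 13, fewer samples. With the title number as replicate block the counts were 3, 3 and 1 over both limb types, in forelimbs and in hindlimbs, and Stmn2 was the call lost (adjusted p = 0.0909). The fit with only the groups compared was not run where all groups are compared, and the block was not run for limb type or side, where numbers are not shared. Dim probe sets limit what can be read, since 6 of the 9 genes averaged under 5 on the log2 scale.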
